A study of Drosophila melanogaster with 3 samples.

Results

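Doublesex (DSX) is the transcription factor through which somatic cells of Drosophila carry out their sexual fate. Females make the splice form DSXF and males the form DSXM. Both carry the same DM-type zinc-finger domain, which contacts DNA as a dimer, and they end in different C-terminal stretches. The regions described here are those that were occupied by both isoforms but broken up differently, so that a single peak of one isoform lay over several peaks of the other, or the isoforms were broken at different points. Peaks of both lists were joined into merged regions wherever peaks of different isoforms overlapped by at least 1 bp. Of 7232 merged regions, 4403 held peaks of both isoforms and 4180 of these were simple pairs of 1 DSXF and 1 DSXM peak. The remaining 223 regions, 5.06% of the shared ones (95% Wilson interval 4.46 to 5.75%), were not such pairs and are the subject of this account. They were chosen by the start and end positions of the peaks, so every count of pieces, gaps and widths below is a description of these lists and carries no test.

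Occupancy was mapped by chromatin immunoprecipitation and sequencing in S2 cells, a cultured line derived from Drosophila embryos. One population was transfected with the construct pMT5.1-DSXF-V5-His B and another with pMT5.1-DSXM-V5-His B, each together with the selection plasmid pCoBlast. Chromatin from both was precipitated with an antibody against the V5 tag. The isoforms were thus expressed from plasmids, in a cultured line and not in a sexed tissue. Untransfected S2 cells supplied input DNA, and an anti-V5 precipitate from untransfected cells was not analysed here. Each isoform was represented by 3 biological replicates whose reads were pooled before alignment, from 4 sequence runs for DSXF and 3 for DSXM, so there was 1 peak list per isoform and no replicate error. The lists held 6520 DSXF and 5370 DSXM peaks as positions on the dm3 build, without height or score, and the read depth is unknown. Intervals given below cover counting error over regions or gaps and nothing else. A longer or deeper list can also join or break peaks differently, and the number of runs and the isoform cannot be told apart in this design.

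A single DSXF peak over several DSXM peaks was the most frequent form. It was found in 143 of the 223 regions (64.1%, Wilson 57.6 to 70.1%). The opposite form, 1 DSXM peak over several DSXF peaks, was found in 57 regions (25.6%, 20.3 to 31.7%). In the other 23 regions (10.3%, 6.97 to 15.0%) both lists had several peaks. Most regions were simple: 136 held 1 DSXF and 2 DSXM peaks, 57 held 2 DSXF and 1 DSXM peak, and 22 held 2 of each. There were 6 regions with 1 DSXF and 3 DSXM peaks, 1 with 2 DSXF and 3 DSXM peaks, and 1 with a DSXF peak over 4 DSXM peaks. The 223 regions took up 303 DSXF peaks, or 4.65% of that list, and 398 DSXM peaks, or 7.41% of that list. Their median width was 3015 bp for DSXF and 2036.5 bp for DSXM, where the medians of the whole lists were 1544.5 and 1578.5 bp.

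The broken stretch is called a bridged gap: the bases between neighbouring peaks of one list that lie wholly inside 1 peak of the other. By the rule all 223 regions held at least 1, and there were 175 DSXM gaps inside DSXF peaks and 80 DSXF gaps inside DSXM peaks. The example with most pieces was on 3R from 3930196 to 3946428. There DSXF formed a single peak of 16.0 kb, and DSXM formed 4 peaks of 2.65, 2.25, 2.78 and 2.30 kb. The 3 DSXM gaps widened along the region, from 1124 bp to 1990 bp and 3084 bp, and the last was the widest bridged gap of all. The DSXM cover came to 60.9% of the DSXF peak, while the outer edges of both isoforms lay 223 bp apart at the start and 57 bp apart at the end.

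**Figure D1:**
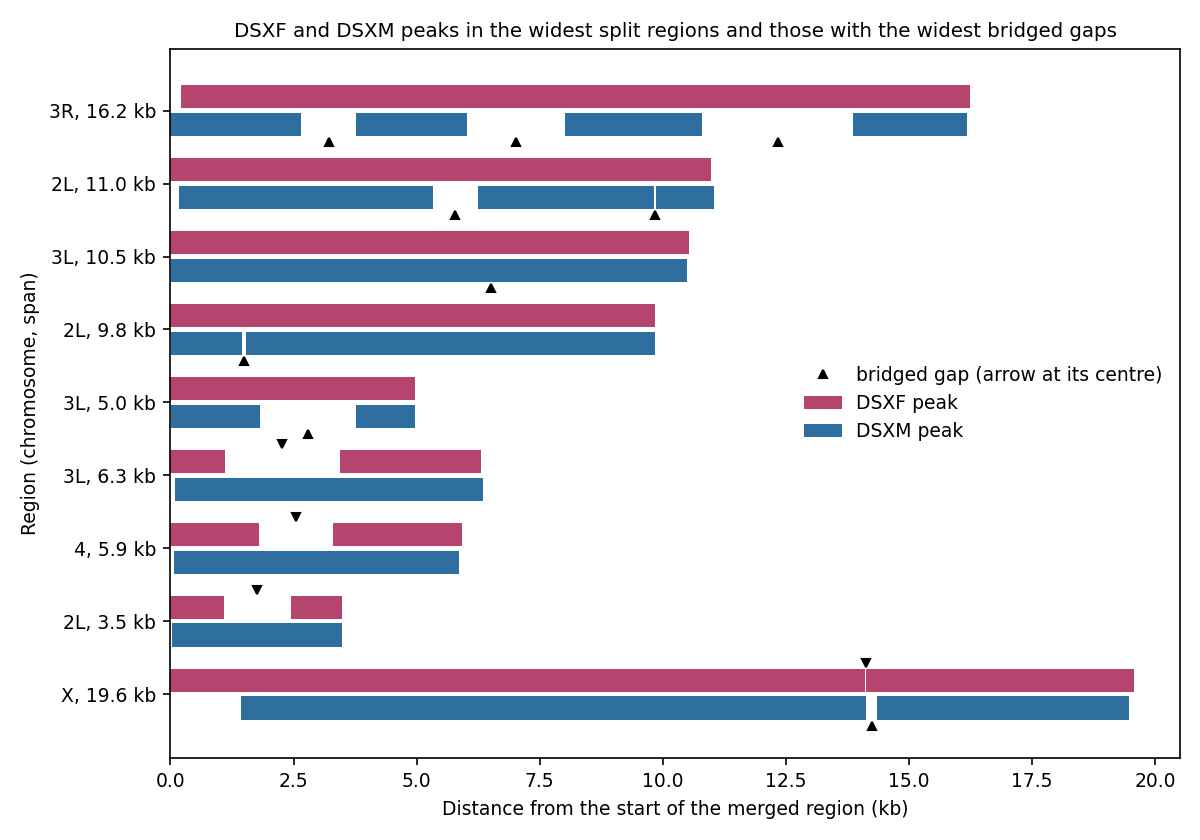
Peaks of DSXF (red) and DSXM (blue) along 9 split regions, in kb from the start of each merged region; arrows mark bridged gaps, upward for a DSXM gap and downward for a DSXF gap. The regions are the 5 of widest span and those with the 3 widest bridged gaps in each direction; gaps of 2 and 14 bp are too narrow to see and show only by their arrows.

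Other wide DSXF peaks were interrupted for DSXM by less. On 2L from 7431455 to 7442489 (11.0 kb), a DSXF peak lay over 3 DSXM peaks of 5.17, 3.59 and 1.18 kb, separated by gaps of 904 and 37 bp. On 3L from 16036072 to 16046599 (10.5 kb), DSXM differed from DSXF by a single break of 14 bp, and 99.5% of the DSXF peak lay in DSXM peaks. On 2L from 5021263 to 5031109 (9.85 kb), the DSXM break was 70 bp wide and lay near the start, after a first peak of 1.44 kb, with 8.31 kb of unbroken DSXM peak behind it. In these 3 regions the outer edges of the isoforms were between 4 and 166 bp apart. On 3L from 1346334 to 1351307 (4.97 kb) the DSXM break was larger relative to the region, 1951 bp between peaks of 1.80 and 1.19 kb, with outer edges 14 and 17 bp apart.

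Regions where DSXM was continuous and DSXF was not spanned at most 7.19 kb. The widest DSXF break, 2332 bp, was on 3L from 18159876 to 18166223, where a DSXM peak of 6.27 kb lay over DSXF peaks of 1.10 and 2.88 kb. The next was the single split region on chromosome 4, from 152135 to 158064, in which a DSXM peak of 5.80 kb lay over DSXF peaks of 1.79 and 2.63 kb separated by 1508 bp. On 2L from 3901593 to 3905078, a DSXM peak of 3.46 kb was opposed by DSXF peaks of 1.09 and 1.04 kb, 1347 bp apart. DSXF peaks covered 62.3%, 74.0% and 60.7% of the DSXM peak in these 3 regions. Their outer edges were 83 bp apart or less, so the isoforms began and ended together and differed inside.

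Most breaks were narrow in both directions. The median bridged gap was 159 bp for DSXM gaps (quartiles 57.5 and 438 bp) and 144.5 bp for DSXF gaps (quartiles 49.5 and 360.75 bp). Chromatin had been sheared to between 200 and 1000 bp, so a gap under 200 bp is shorter than the shortest intended fragment. This held for 100 of the 175 DSXM gaps (57.1%, 49.7 to 64.2%) and for 46 of the 80 DSXF gaps (57.5%, 46.6 to 67.7%). Gaps over 1000 bp numbered 19 for DSXM (10.9%, 7.06 to 16.3%) and 7 for DSXF (8.75%, 4.30 to 17.0%). Counted by region, 120 of the 223 (53.8%, 47.3 to 60.2%) had no bridged gap of 200 bp or more, and 48 had none over 50 bp. At the other end, 24 regions (10.8%, 7.34 to 15.5%) held a gap over 1000 bp, of which 14 were continuous for DSXF, 5 were continuous for DSXM and 5 had several peaks of both. Added up, the bridged gaps came to 61.4 kb for DSXM and 25.5 kb for DSXF, within 1.13 Mb of split regions.

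**Figure D2:**
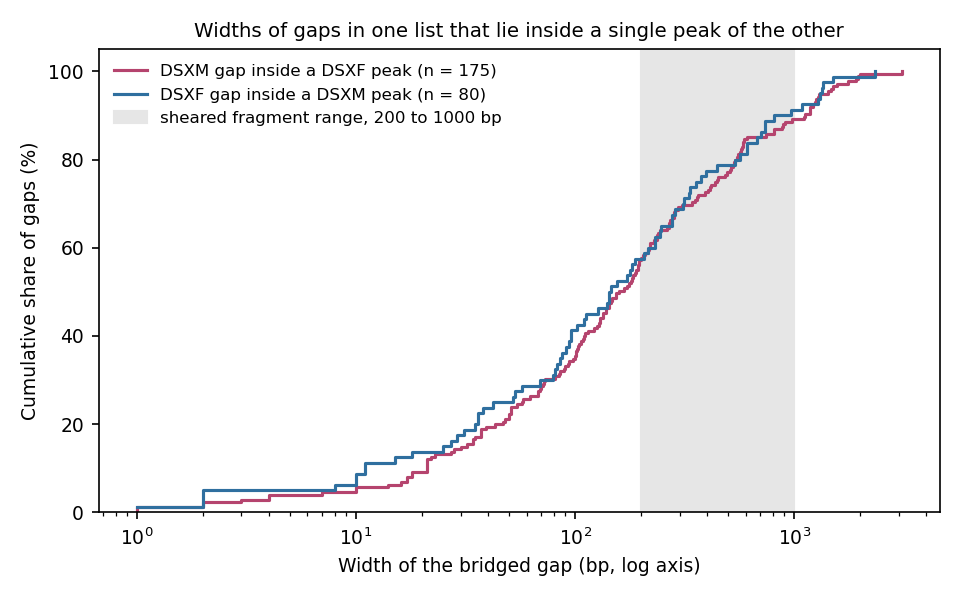
Cumulative share (%) of bridged gaps against their width in bp on a log axis, for 175 DSXM gaps inside DSXF peaks and 80 DSXF gaps inside DSXM peaks; the grey band is the fragment range of 200 to 1000 bp. The curves run close together, with medians of 159 and 144.5 bp, and both pass 57% below the band.

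The narrowest breaks were of 1 or 2 bp. On 2L from 5144632 to 5152368, a DSXF peak of 7.71 kb lay over DSXM peaks of 2.42 and 5.23 kb that were separated by 2 bp. On 3R from 14262107 to 14266075, a DSXM peak of 3.95 kb lay over DSXF peaks of 1.42 and 2.34 kb with 1 bp between them. On 2L from 4117117 to 4122385, the DSXF peaks of 3.91 and 1.36 kb under a DSXM peak of 4.99 kb were 2 bp apart. In the last of these 3 regions, DSXF peaks covered 99.96% of the DSXM peak. The other regions named for a break of 1 bp, on 2L from 13439210 and on 2R from 2556050, had DSXF and DSXM starts 1509 and 921 bp apart and are described further on.

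Narrow gaps of one isoform were bridged by the other more often than wide ones. A bridging peak must be wider than the gap, which favours narrow gaps by construction. Over all neighbouring peaks, 3.27% of DSXM gaps were bridged by a DSXF peak and 1.23% of DSXF gaps by a DSXM peak. Of the 53 DSXM gaps of up to 50 bp, however, 39 were bridged by DSXF (73.6%, 60.4 to 83.6%), and of the 71 DSXF gaps of that width 20 were bridged by DSXM (28.2%, 19.0 to 39.5%). Between 101 and 200 bp the shares were 40.2% (31.0 to 50.2%) for DSXM gaps and 11.4% (6.79 to 18.5%) for DSXF gaps. Between 501 and 1000 bp they were 6.52% (4.30 to 9.76%) and 2.46% (1.34 to 4.47%). Between 2001 and 5000 bp a single gap was bridged in each direction, of 1000 DSXM and 1367 DSXF gaps.

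In each of these width classes up to 1000 bp the share was higher for DSXM gaps. Over all gaps of up to 200 bp, 101 of 197 DSXM gaps were bridged (51.3%, 44.3 to 58.2%) and 46 of 245 DSXF gaps (18.8%, 14.4 to 24.1%). Part of the gaps of either list lay beside a peak that the other isoform lacked altogether. When only gaps were counted whose flanking peaks both overlapped the other isoform, the shares were 62.7% (55.0 to 69.8%) of 161 DSXM gaps and 30.1% (23.4 to 37.7%) of 153 DSXF gaps. Every bridged gap has such flanking peaks, so this restriction can only raise the shares.

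**Figure D3:**
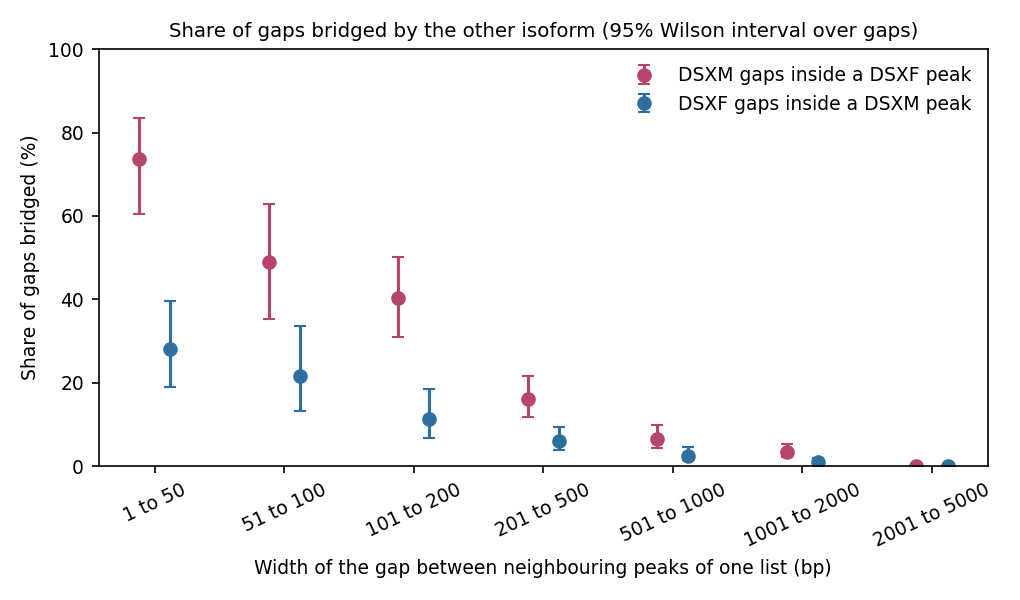
Share (%) of gaps between neighbouring peaks of one list that lay inside a single peak of the other, by gap width in bp; points are shares and bars are 95% Wilson intervals over gaps. The share for DSXM gaps falls from 73.6% at 1 to 50 bp to 6.52% at 501 to 1000 bp, and the share for DSXF gaps from 28.2% to 2.46%.

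Wide shared regions were split differently far more often than narrow ones, which the rule favours, since joining several peaks makes a region wide. The median span was 4739 bp in split regions (range 2017 to 19572 bp) and 1928.5 bp in 1-to-1 pairs. None of the 2203 shared regions of up to 2000 bp was split, which allows a share of up to 0.136% (3 regions of the total). The share was 10.8% (8.41 to 13.7%) of 529 regions between 3001 and 4000 bp, 19.9% (15.4 to 25.3%) of 251 between 4001 and 5000 bp, and 31.9% (26.0 to 38.5%) of 210 between 5001 and 7000 bp. Between 7001 and 10000 bp it was 36.1% (26.0 to 47.6%) of 72 regions. Among regions with a continuous isoform, DSXF was the continuous one in 119 of 175 that spanned up to 7 kb (68.0%, 60.8 to 74.5%) and in 24 of 25 wider ones (96.0%, 80.5 to 99.3%).

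**Figure D4:**
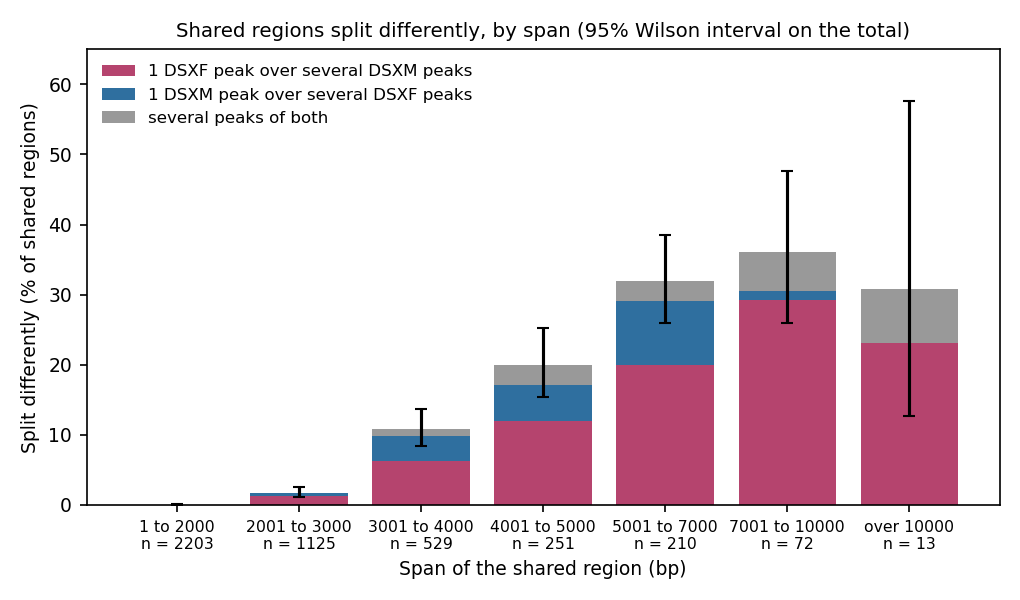
Share (%) of shared regions that were split differently, by span in bp; bar segments give the 3 forms, black bars the 95% Wilson interval of the total, and n the shared regions per class. The total rises from 1.69% at 2001 to 3000 bp to 36.1% at 7001 to 10000 bp, and DSXM-continuous regions number 1 of 72 in the latter class and 0 of 13 above it.

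The pieces themselves were peaks of ordinary size. The DSXM pieces under a DSXF peak had a median width of 1748 bp (range 568 to 8309 bp) and the DSXF pieces under a DSXM peak one of 1791.5 bp (912 to 4951 bp). The narrowest piece of a region was at the median 63.9% as wide as the widest one for DSXM pieces and 68.2% for DSXF pieces. The pieces covered a median of 90.2% of the DSXF peak and 93.0% of the DSXM peak above them. Cover reached 90% or more in 73 of 143 DSXF-continuous regions and in 32 of 57 DSXM-continuous regions, and fell under 50% in 1 and 0 of them.

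Breaks lay mostly away from the ends of the peak that spanned them, which the rule favours, since a break needs a peak on each side. In regions with a continuous isoform, the narrowest piece had a median width of 1362 bp for DSXM pieces and 1409 bp for DSXF pieces. The centre of the gap was in the middle stretch, between 25% and 75% of the way along, for 125 of 175 DSXM gaps (71.4%, 64.3 to 77.6%) and 53 of 80 DSXF gaps (66.2%, 55.4 to 75.7%). The first piece by coordinate was the wider in 72 of 136 regions with 2 DSXM pieces (52.9%, 44.6 to 61.1%) and in 22 of 57 with 2 DSXF pieces (38.6%, 27.1 to 51.6%).

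Some regions met the rule by a touch and not by a peak that spanned its pieces. The continuous peak covered at least 50% of every piece in 128 of 143 DSXF-continuous regions (89.5%, 83.4 to 93.5%) and in 45 of 57 DSXM-continuous ones (78.9%, 66.7 to 87.5%). On 2L from 13439210 to 13442306, the DSXF peak of 1.59 kb began 1509 bp after the first of 2 DSXM peaks and reached it only at its end, across a break of 1 bp. On 2R from 2556050 to 2558183, the DSXF peak began 921 bp after the first DSXM peak, again with a break of 1 bp. At the edge of the rule, the smallest overlaps that joined peaks into a split region were 1, 2 and 5 bp, and the nearest misses were separated by 0, 1 and 3 bp. Overlaps under 100 bp held 26 of the 223 regions together, and 33 pairs of neighbouring regions missed being joined by 50 bp or less.

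In the 23 regions with several peaks of both, the isoforms were broken at different points. This follows from the rule, since a base in a gap of both lists would end a merged region. For the same reason, DSXF and DSXM gaps overlapped in none of the 23, and each held bridged gaps in both directions. The centres of the closest DSXF and DSXM breaks were a median of 353.5 bp apart (range 65.5 to 2906 bp), 300 bp or less in 10 regions and over 1000 bp in 4. The widest was on X from 12552121 to 12571692 (19.6 kb). There DSXF peaks of 14.1 and 5.45 kb were separated by 2 bp and DSXM peaks of 12.7 and 5.12 kb by 218 bp, and an overlap of 15 bp beside the break held the region together. On 2L from 6081737 to 6089851 (8.12 kb), the break was 181 bp wide for DSXF and 143 bp for DSXM, with centres 174 bp apart.

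Other regions of this form had breaks farther from each other. On 3L from 8678740 to 8686930 (8.19 kb), DSXF was broken by 102 bp after a first peak of 4.17 kb and DSXM by 126 bp after a first peak of 1.96 kb, with break centres 2138 bp apart. On 2L from 12539831 to 12547527 (7.70 kb), the DSXF break was 10 bp wide and the DSXM break 1174 bp, with centres 813 bp apart. On 2L from 9182152 to 9190737 (8.59 kb), 2 DSXF peaks separated by 15 bp faced 3 DSXM peaks separated by 1259 and 100 bp. The narrow DSXM gap lay beside the DSXF gap, with centres 65.5 bp apart, and the wide one had no DSXF counterpart.

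Over all spans, the outer borders of split regions matched less closely than those of 1-to-1 pairs. A border was over 1000 bp off in 14.3% of split regions (10.4 to 19.6%) and in 7.13% of pairs (6.39 to 7.95%). At like span this share was lower for split regions in the classes from 3001 to 7000 bp. It was higher between 7001 and 10000 bp (11.5% and 8.70%). The start and end of DSXF cover each lay a median of 70.5 bp from those of DSXM cover in split regions and 62 bp in 1-to-1 pairs. Both borders were within 200 bp in 122 of 223 split regions (54.7%, 48.2 to 61.1%) and in 64.4% of 1-to-1 pairs (63.0 to 65.9%), which are narrower. At like span the order was the other way. Between 4001 and 5000 bp the shares were 52.0% of 50 split regions (38.5 to 65.2%) and 41.8% of 201 pairs (35.2 to 48.7%), and between 5001 and 7000 bp they were 52.2% of 67 (40.5 to 63.7%) and 42.0% of 143 (34.2 to 50.2%). The order was the same between 3001 and 4000 bp (50.9% and 43.9%) and between 7001 and 10000 bp (65.4% and 58.7%). The intervals overlap within each class, and the difference over the classes was not tested. Span includes any shift of the borders, so a pair with shifted borders falls into a wider class for that reason. DSXF cover reached beyond DSXM cover at both ends in 53 of 143 DSXF-continuous regions and also in 22 of 57 DSXM-continuous regions, where DSXM cover reached further at both ends in 6. These shares, 37.1% and 38.6%, were a little under the 42.8% of 1-to-1 pairs (1791 of 4180) in which DSXF cover reached beyond DSXM cover at both ends. Of all bases covered in the split regions, 82.7% lay in peaks of both isoforms, against 84.9% in 1-to-1 pairs. Among regions of 3001 to 7000 bp, the median share per region was 85.0% for split regions and 90.9% for pairs. By the rule every split region holds a bridged gap covered by 1 isoform alone, which a pair cannot hold. The rule thus lowers both shares of the split regions.

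**Figure D5:**
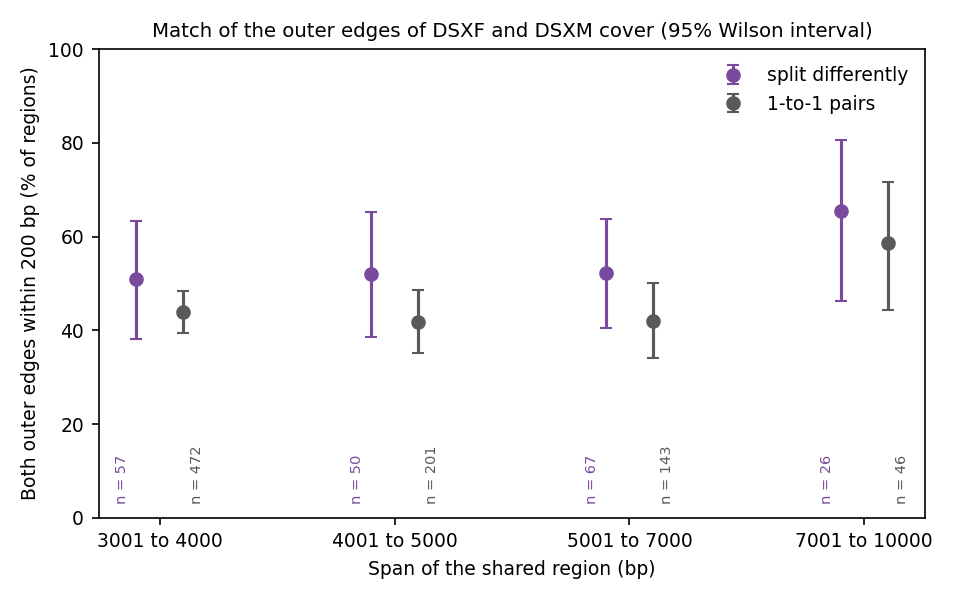
Share (%) of regions whose DSXF and DSXM outer borders were both within 200 bp, by span in bp, for split regions (purple) and 1-to-1 pairs (grey); bars are 95% Wilson intervals and n the regions. Split regions lie between 50.9% and 65.4% and 1-to-1 pairs between 41.8% and 58.7%, with overlapping intervals in each class.

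Split regions were found on every chromosome arm. They made up 6.35% of shared regions on 2L (55 of 866, 4.91 to 8.18%), 4.96% on 2R (41 of 826, 3.68 to 6.66%), 5.21% on 3L (52 of 999, 3.99 to 6.76%) and 4.13% on 3R (47 of 1139, 3.12 to 5.44%). The X chromosome held 27 of 519 (5.20%, 3.60 to 7.46%), and the 4 autosome arms together 195 of 3830 (5.09%, 4.44 to 5.83%). Chromosome 4 held 1 of 37. On heterochromatic and unplaced sequences 0 of 17 shared regions were split, which allows a share of up to 17.6%. Among regions that spanned over 3 and up to 7 kb, the share was 14.4% on X (9.51 to 21.2%) and 18.1% on the autosome arms (15.7 to 20.9%). All these intervals overlap. Of the regions with a continuous isoform, DSXF was the continuous one in most on X and on each of the 4 autosome arms, from 15 of 24 on X (62.5%, 42.7 to 78.8%) to 30 of 36 on 2R (83.3%, 68.1 to 92.1%), and in 0 of 1 on chromosome 4.

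The split regions were scattered, with a few close groups. Of 121 bins of 1 Mb on the 5 main arms, 94 held at least 1, the median was 1 and 19 held 4 or more. The highest number was 11, on 3L between 16 and 17 Mb, which was 16.7% of the 66 shared regions there (9.57 to 27.4%). Of these 11, DSXF was continuous in 8 and DSXM in 2, and the bridged gaps ran from 14 to 1419 bp. Within 10 kb of each other lay 31 split regions, in 15 groups. No matching count is given for 1-to-1 pairs, so this number does not show whether split regions cluster. The closest pair was on 2R, where the regions from 7071224 to 7079182 and from 7079262 to 7087057 were 79 bp apart. The first had a DSXF peak of 7.96 kb over 3 DSXM peaks with gaps of 181 and 68 bp, and the second a DSXF peak of 7.79 kb over 2 DSXM peaks with a gap of 1106 bp. On 2L, a DSXM peak of 7.18 kb over 2 DSXF peaks with a gap of 83 bp (9174321 to 9181510) lay 641 bp before the region with 5 peaks described above. A group of 3 on 3L, from 16029917 to 16052087, joined a region of 2.10 kb with a DSXM gap of 27 bp, the region of 10.5 kb with the 14 bp break, and a region with 2 peaks of each isoform.

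At like span, the distances to neighbouring regions were close to those of other shared regions. The nearest neighbouring region lay a median of 1440 bp away for split regions and 2128 bp for 1-to-1 pairs. Among regions of 3001 to 7000 bp the medians were 1468 and 1541.5 bp, and a neighbour lay within 1000 bp for 38.5% of either kind (31.6 to 45.9% for split regions, 35.2 to 41.9% for pairs). The nearest neighbour of a split region was a 1-to-1 pair in 146 cases (65.5%), a DSXF peak alone in 43 (19.3%), a DSXM peak alone in 25 (11.2%) and another split region in 9 (4.04%). For 1-to-1 pairs of all spans the corresponding shares were close, at 62.3%, 24.3%, 9.88% and 3.52%. Among regions of 3001 to 7000 bp they were 69.0%, 18.4%, 10.9% and 1.72% for split regions, and 66.7%, 19.9%, 7.97% and 5.51% for pairs. The last of these shares rest on 3 of 174 split regions and 45 of 816 pairs. Over all spans their order was the other way, and the difference was not tested.

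No gene is named for these regions, because an annotation of the dm3 build was not used here and positions were not carried over to another build.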

How the data were processed

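Sequencing of anti-V5 immunoprecipitates from S2 cells gave 1 peak list per isoform. The series' design text states that replicates were pooled before reads were aligned. Alignment used dm3, with Bowtie 0.12.7 and Picard among the tools, per the submitters' processing notes. For the peak caller, its threshold and its control, nothing is given in the sources used here. Deposited were lists that have 3 columns, a sequence name with the start and end of each peak, and no signal or score. Starts were taken as 0-based and are printed 1-based. Input DNA was not used.

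Regions were merged with scripts (Python 3.11.15, NumPy 2.4.6; intervals from SciPy 1.17.1). Merging with bedtools 2.31.1 gave the same 223 split regions of 7232. Book-ended peaks were not joined. The code was tested on simulated lists with planted splits. Shares have 95% Wilson intervals. No test between isoforms was run, since each has 1 pooled list. Read depth is unknown. Alternatives were other overlaps, joining of neighbouring peaks, the widest 5000 peaks, placed sequences alone and, chosen after seeing the data, the 5370 widest DSXF peaks. Regions named by position were, by rule, those of widest span, with the widest and narrowest bridged gaps (ties by wider span), the most peaks, several peaks of both lists, and the closest to each other. The densest 1 Mb bin was chosen after its value was seen. The regions and the rules were chosen with earlier results of these data known. The search for the DSX motif and the annotation of genes needed a dm3 sequence and were not run.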

Additional observations from a re-analysis of the deposited data

How the results depend on the processing

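In all 9 settings, the one reported included, more regions were continuous for DSXF than for DSXM. Keeping the 5370 widest DSXF peaks (144 against 49 regions) retains spanning DSXF peaks and drops narrow DSXF pieces by construction, so it does not show what list length contributes. The same limit holds for the widest 5000 peaks of each list (134 against 45 regions), which drops more narrow peaks from the longer DSXF list. Of 82 values under alternatives, 67 stayed within 1.5 times the reported count or median, or within the interval of the reported share. Leaving out heterochromatic and unplaced sequences could change none of the 14 results, because 0 split regions lay there. It is counted in the 9 settings and in the 67 values but is no check of stability. The number of regions with several peaks of both, 23 as reported, was the least stable: 9 with an overlap of at least 100 bp, 1 with an overlap of 50% of the narrower peak, and 4, 5 and 9 when neighbouring peaks of a list were first joined across gaps of up to 200, 500 and 1000 bp. DSXF gaps inside 1 DSXM peak fell from 80 to 46 with an overlap of 50% of the narrower peak, and the cause was not tested. Joining across 200 and 500 bp left 53 and 48 DSXF gaps, where 46 of the 80 had been under 200 bp. Joining removes narrow gaps by construction, and the median bridged gap rose to 473.5, 841.5 and 1341 bp for DSXM gaps and to 392, 737.5 and 1325 bp for DSXF gaps with joining across 200, 500 and 1000 bp. The share of split regions on 2L was 3.94% with joining across 500 bp, against 6.35%. Joining also makes new spanning peaks, so the 168 regions left with joining across 1000 bp need not be among the 223. No paired analysis was possible because replicates were pooled into 1 list for each isoform, and for the same reason no replicate could be left out. Depth is unknown and limits every count of breaks.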
